A study of Rattus norvegicus with 10 samples.

Results

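Class I molecules of the major histocompatibility complex carry peptides from inside the cell to its surface, where CD8+ T cells read them. The immunoproteasome subunits encoded by Psmb8, Psmb9 and Psmb10 replace constitutive subunits and cut proteins into peptides suited to class I. The transporter made of Tap1 and Tap2 moves the peptides into the endoplasmic reticulum, tapasin (Tapbp) holds the empty class I chain at the transporter, and B2m is the light chain that every classical class I molecule needs. In islets these genes are best known for their induction by interferons during insulitis, the infiltration that precedes autoimmune diabetes. In the rat the class I heavy chains belong to the large RT1 family, whose gene content and sequence differ between strains.

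The genes described here are 2 RT1 class I genes (RT1-CE5 and RT1-T24-4) and the 7 genes B2m, Tap1, Tap2, Tapbp, Psmb8, Psmb9 and Psmb10. All probe sets annotated to exactly 1 of these 9 symbols were taken, which gave 15 of the 31042 probe sets tested. RT1-CE5 had 5 probe sets, B2m and Tap1 had 2 each and the other 6 genes had 1 each. A further 2 probe sets that list a member together with other RT1 genes were left out. Each probe set is reported apart, because probe sets of 1 gene did not always move together.

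RNA of pancreatic islets from rats 40 days old was measured on 10 Affymetrix arrays, 2 in each of 5 groups, and the study asked how islets of BioBreeding (BB) rats, a model of autoimmune diabetes, differ from those of non-BB rats before insulitis. JBlyp/lyp rats are diabetes prone and homozygous for the mutation at the lyp locus, the lymphopenia locus of Gimap5. DR+/+ and JB rats are diabetes resistant but inducible and lack that mutation, and F344lyp and F344 rats are healthy controls with and without lyp in their strain name. The growth protocol derives DR+/+ and JBlyp/lyp animals from DRlyp/+ breeders, does not say how JB relates to DR, and calls the BB rats congenic; the treatment protocol describes islets taken from fasted males. The labels name the arrays of a group biological replicates, but 1 animal per array and islets pooled over animals are both possible, and p-values then rest only on the spread between these samples. An array reads all cells of the preparation at once, so fewer cells of a type and less RNA per cell cannot be told apart.

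Each value below is a log2 RMA intensity, a brightness on which 1 unit is a doubling, and each difference is a log2 difference of group means with its standard error (SE). "Called" means an adjusted p (Benjamini-Hochberg over all 31042 probe sets, limma) under 0.05. Across probe sets, the 2 arrays of each group had correlations between 0.981 and 0.997. The insulin genes Ins1 and Ins2, which define beta cells, lay between 13.42 and 14.27 on every array, near the top of the scale. The T cell list, 11 marker genes, summed to 8.74 and 8.75 in JBlyp/lyp and to 8.96 and 9.04 in F344lyp (log2 of the summed intensities), against 9.15 to 9.63 on the 6 arrays of groups without lyp. Gimap5 itself read 5.95 and 5.65 in JBlyp/lyp, 8.22 and 8.41 in DR+/+, 7.05 and 5.95 in JB, 5.96 and 6.02 in F344lyp, and 7.03 and 6.82 in F344. The library labelled JB replicate 2 thus lay at the Gimap5 level of the lyp groups and only slightly above their T cell level, at 9.15 against 9.04 in F344lyp. That gap is smaller than the one between the 2 lyp groups. Whether its label is right was not tested, and comparisons with JB are also given without it. The DR+/+ arrays stood apart, with the beta cell list, 7 measured genes, at 14.85 and 14.88 there, against 15.54 to 15.75 on the other 8 arrays, and the endothelial list at 13.61 and 13.63, against 11.93 to 12.70.

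How well the probe sets could show a change differed. The mean intensity of 9 of the 15 lay above the median of all probe sets, and 5 lay in the lowest 25 percent of all. Those 5 were 4 of the 5 probe sets of RT1-CE5 (1371209_at, 1371210_s_at, 1388254_a_at and 1388255_x_at, between 2.48 and 3.61 on every array) and 1 probe set of Tap1 (1375379_at, between 3.24 and 4.18). No detection calls were analysed here, so whether these lie above background was not tested. By contrast, the B2m probe sets 1367595_s_at and 1371440_at lay at the 99.5th and 97.5th percentile of mean intensity. In Affymetrix naming, the endings _s_at and _x_at mark probe sets whose probes can also match other transcripts, so a value of RT1-CE5 or RT1-T24-4 can hold signal of related RT1 genes. RefSeq lists RT1-CE7 as a synonym of RT1-CE5. Whether strains differ in sequence at the probes was not tested.

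4 of the genes sit side by side. In the RefSeq annotation of GRCr8, Tap2, Psmb8, Tap1 and Psmb9 follow each other on chromosome 20, between the class II genes RT1-DOb and RT1-DMb. RT1-T24-4, RT1-CE5 and Tapbp are on the same chromosome, B2m is on chromosome 3 and Psmb10 on chromosome 19. Tap1 and Psmb9 point away from each other, with 456 bases between the starts on which their windows are set. The RefSeq windows from 250 bases before to 50 bases after the start are printed for the 5 genes outside RT1 that had a probe set called lower in BB islets, in their own gene's direction, because these genes are textbook interferon targets. Capitals mark GAAA, any 2 bases and GAAA again, or the same read on the opposite strand (TTTC, 2 bases, TTTC), the core of the interferon-stimulated response element, to which interferon regulatory factors bind.
Psmb10, chr19:50743243-50743542, minus strand: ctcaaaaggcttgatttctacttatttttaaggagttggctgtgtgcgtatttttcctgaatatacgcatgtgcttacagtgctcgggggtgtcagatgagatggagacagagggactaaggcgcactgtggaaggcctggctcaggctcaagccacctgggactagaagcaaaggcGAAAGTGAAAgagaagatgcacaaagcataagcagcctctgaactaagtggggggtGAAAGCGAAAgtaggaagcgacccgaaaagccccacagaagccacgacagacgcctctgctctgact
Psmb9, chr20:4668750-4669049, plus strand: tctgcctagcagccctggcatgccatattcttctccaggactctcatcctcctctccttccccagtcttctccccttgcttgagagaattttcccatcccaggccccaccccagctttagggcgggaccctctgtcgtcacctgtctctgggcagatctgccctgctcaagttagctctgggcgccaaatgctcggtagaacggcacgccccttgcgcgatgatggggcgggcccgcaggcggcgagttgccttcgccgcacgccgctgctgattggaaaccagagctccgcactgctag
Tapbp, chr20:4967828-4968127, minus strand: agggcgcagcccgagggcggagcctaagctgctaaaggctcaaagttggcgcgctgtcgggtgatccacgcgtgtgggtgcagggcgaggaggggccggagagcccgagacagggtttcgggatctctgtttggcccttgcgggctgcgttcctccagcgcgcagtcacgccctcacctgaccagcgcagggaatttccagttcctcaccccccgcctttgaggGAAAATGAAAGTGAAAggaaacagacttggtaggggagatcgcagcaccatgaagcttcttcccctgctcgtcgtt
Tap1, chr20:4668494-4668793, minus strand: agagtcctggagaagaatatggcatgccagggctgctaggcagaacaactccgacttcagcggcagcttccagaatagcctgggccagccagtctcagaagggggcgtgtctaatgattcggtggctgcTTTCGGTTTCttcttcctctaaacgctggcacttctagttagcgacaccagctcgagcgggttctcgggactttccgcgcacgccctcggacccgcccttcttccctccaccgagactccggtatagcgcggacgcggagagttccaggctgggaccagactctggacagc
B2m, chr3:129549080-129549379, plus strand: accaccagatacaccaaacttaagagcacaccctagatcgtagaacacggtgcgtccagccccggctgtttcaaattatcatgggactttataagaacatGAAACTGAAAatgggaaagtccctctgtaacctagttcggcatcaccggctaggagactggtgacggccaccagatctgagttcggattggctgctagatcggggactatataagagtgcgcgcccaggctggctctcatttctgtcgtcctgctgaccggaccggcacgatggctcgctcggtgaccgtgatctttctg

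These letters were in 6 of the 9 members' windows (B2m, Tap1, Tap2, Tapbp, Psmb8 and Psmb10), and in 3.92% of the 33469 RefSeq windows of the same length. Psmb10 held 2 matches, which begin 73 and 17 bases before its start, and Tapbp held 2 that overlap, 26 and 20 bases before its start. The match of Tap1 begins 121 bases before the start, that of B2m 150 bases, that of Tap2 41 bases and that of Psmb8 4 bases. The windows of Psmb9, RT1-CE5 and RT1-T24-4 held no match, and only 44 of the bases between Tap1 and Psmb9 are in both of their windows. Searched the same way, TTCNNNGAA, the gamma-activated site, was in 1 member window (Psmb8) and in 8.87% of all windows, and a loose NF-kB pattern, GGG, any 5 bases and CC, in 5 member windows and in 47.3% of all. A match is a run of letters in the reference strain, not a site shown to be used in these islets.

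The first comparison set the 6 arrays of the BB-related groups (the mean of the JBlyp/lyp, DR+/+ and JB means) against the 4 arrays of F344lyp and F344. Of the 15 probe sets, 9 were called, 6 lower and 3 higher in BB islets, where 33.2% of all probe sets were called, 17% lower and 16.2% higher. The median difference of the 15 was -0.23, against 0.03 over all probe sets. The immunoproteasome subunits Psmb10 and Psmb9 and the loading factor Tapbp were lower, RT1-T24-4 was higher, and Psmb8 and Tap2 were not called. B2m, Tap1 and RT1-CE5 each had probe sets that gave different answers. How far the groups of one background differ from each other does not enter this error. When strain entered as a random block, 3 of the 15 were called (Psmb10, Psmb9 and RT1-T24-4).

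**Figure D1:**
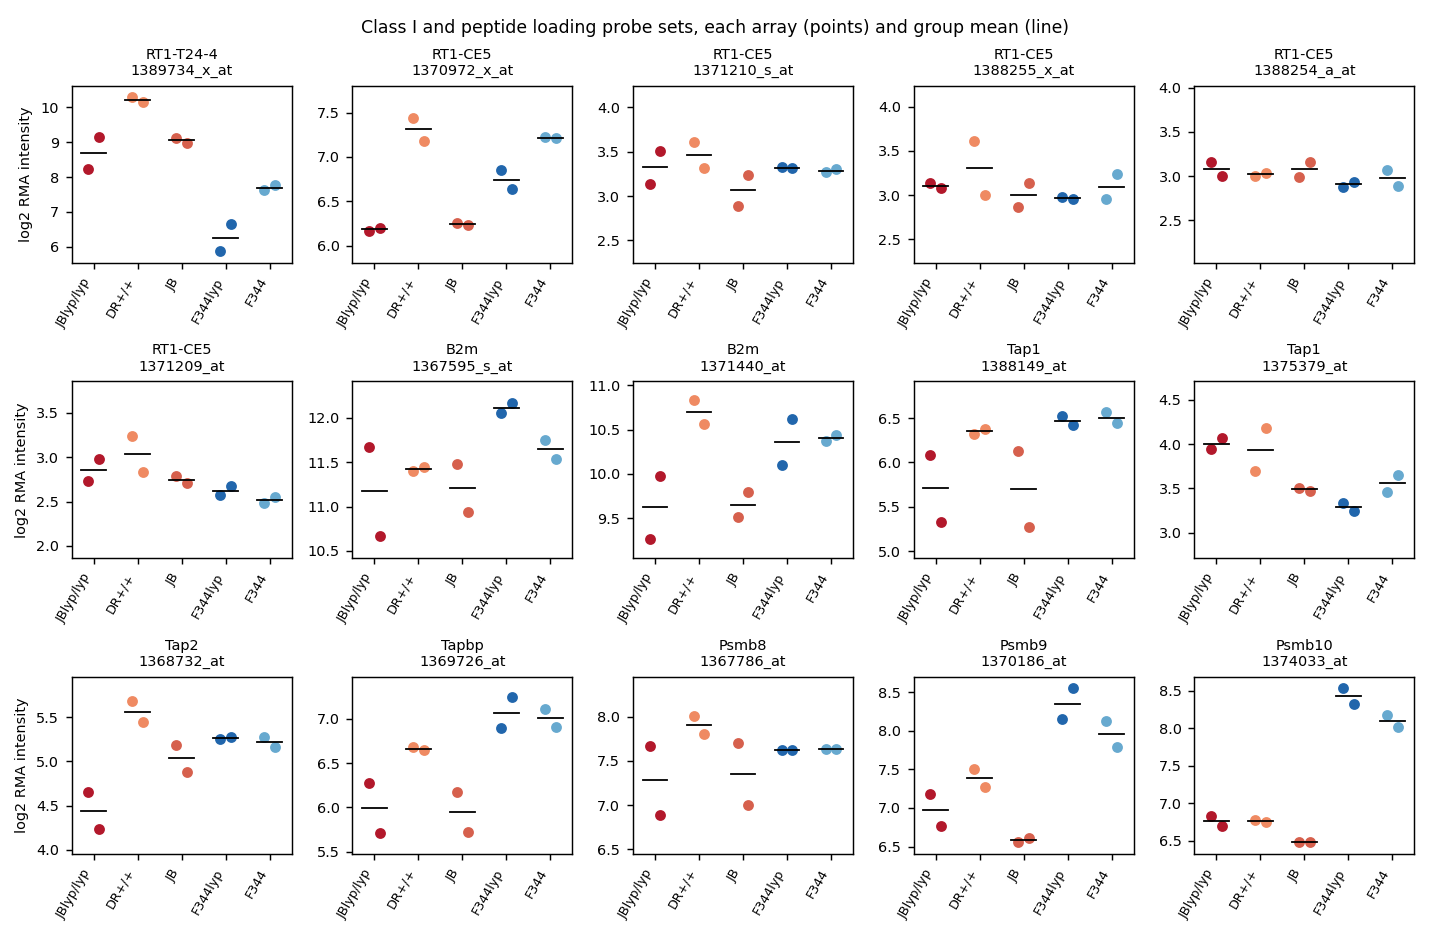
Log2 RMA intensity of each of the 15 probe sets (panels) on every array (points, 2 per group) with the group mean (line), in the groups JBlyp/lyp, DR+/+, JB, F344lyp and F344 from left to right; each panel spans at least 2 log2 units. Psmb10 and Psmb9 lie lower on all 6 arrays of the JBlyp/lyp, DR+/+ and JB groups, RT1-T24-4 lies higher on all 6, and the paired points of Tap1 1388149_at and Psmb8 lie far apart in JBlyp/lyp and JB.

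Psmb10 encodes the immunoproteasome subunit that takes the place of Psmb7. It read 6.83 and 6.70 in JBlyp/lyp, 6.77 and 6.75 in DR+/+, and 6.48 and 6.48 in JB, against 8.53 and 8.33 in F344lyp and 8.18 and 8.01 in F344. All 6 BB arrays lay below the 4 control arrays, with no overlap and with close replicates. The BB and control arrays did not overlap for 6 of the 15 probe sets and for 13.6% of all probe sets. Its signal fell by 1.59 (SE 0.09, 3.02-fold lower, adjusted p = 2.98e-06, limma with Benjamini-Hochberg). The JBlyp/lyp and DR+/+ arrays overlapped each other, while the other neighbours in the order of group means (F344lyp, F344, JBlyp/lyp, DR+/+, JB) did not.

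Psmb9 encodes the subunit that replaces Psmb6. It read 7.19 and 6.77 in JBlyp/lyp, 7.50 and 7.27 in DR+/+, and 6.55 and 6.62 in JB, against 8.15 and 8.55 in F344lyp and 8.13 and 7.79 in F344. Again every BB array lay below every control array, and no neighbouring groups overlapped. A lack of overlap between 2 groups of 2 arrays was common, from 29.8% of all probe sets (JBlyp/lyp against JB) to 63.7% (JBlyp/lyp against DR+/+). The difference was -1.17 (SE 0.13, 2.25-fold lower, adjusted p = 0.000154, limma). Psmb8 encodes the third immunoproteasome subunit, which replaces Psmb5. It gave another picture, with 7.66 and 6.89 in JBlyp/lyp, 8.01 and 7.80 in DR+/+, and 7.70 and 7.01 in JB, against 7.62 and 7.62 in F344lyp and 7.63 and 7.63 in F344. DR+/+ lay above the controls and the other BB arrays lay on both sides of them. The difference of -0.11 was not called (95% interval -0.50 to 0.27, adjusted p = 0.654), so a fall as large as that of Psmb9 or Psmb10 is outside the interval.

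Tapbp, the tapasin gene, read 6.27 and 5.71 in JBlyp/lyp, 6.68 and 6.65 in DR+/+, and 6.18 and 5.72 in JB, against 6.89 and 7.24 in F344lyp and 7.11 and 6.91 in F344. All BB arrays were lower, DR+/+ the least. The difference was -0.84 (SE 0.14, 1.79-fold lower, adjusted p = 0.00177, limma), and with the strain as a random block its adjusted p was 0.125.

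The transporter genes were less clear. Tap2 read 4.65 and 4.23 in JBlyp/lyp, 5.68 and 5.44 in DR+/+, and 5.19 and 4.88 in JB, against 5.25 and 5.27 in F344lyp and 5.27 and 5.16 in F344. DR+/+ was the highest group and JBlyp/lyp the lowest, with the controls between them, and the overall difference of -0.23 was not called (adjusted p = 0.164). Without the DR+/+ arrays Tap2 was called lower, at -0.50 (adjusted p = 0.0236). The brighter probe set of Tap1, 1388149_at, read 6.09 and 5.33 in JBlyp/lyp, 6.33 and 6.37 in DR+/+, and 6.13 and 5.27 in JB, against 6.52 and 6.42 in F344lyp and 6.57 and 6.45 in F344. The BB arrays all lay below the controls, but by little in replicate 1 of JBlyp/lyp and JB and by about 1 unit in their replicate 2. This probe set fell by 0.57 (SE 0.19, adjusted p = 0.0393), and the dim one, 1375379_at, rose by 0.39 (SE 0.11, adjusted p = 0.0231), so no direction is given for Tap1. The fall of 1388149_at lost its call without any single array other than JB replicate 1 and JBlyp/lyp replicate 1 (adjusted p = 0.0552 to 0.128). The rise of 1375379_at lost it without F344 replicate 1 (0.111), F344lyp replicate 1 (0.053) or F344lyp replicate 2 (0.0821).

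Among the class I chains, RT1-T24-4 (1389734_x_at) had the widest spread. It read 8.24 and 9.14 in JBlyp/lyp, 10.29 and 10.16 in DR+/+, and 9.13 and 8.99 in JB, against 5.87 and 6.65 in F344lyp and 7.63 and 7.77 in F344. Every BB array lay above every control array, and the 2 control groups were also apart from each other. The difference was 2.34 (SE 0.19, 5.08-fold higher, adjusted p = 2.93e-05, limma). RT1-CE5 (1370972_x_at) read 6.17 and 6.20 in JBlyp/lyp, 7.44 and 7.18 in DR+/+, and 6.25 and 6.23 in JB, against 6.85 and 6.64 in F344lyp and 7.22 and 7.21 in F344. DR+/+ and F344 overlapped at the top, and JBlyp/lyp and JB were the lowest. The pooled difference of -0.40 (SE 0.09, adjusted p = 0.00794) thus joined unlike groups, and without the DR+/+ arrays it was -0.77 (adjusted p = 0.000945). Of the 4 dim probe sets of RT1-CE5, 1371209_at was called higher at 0.31 (adjusted p = 0.0476) and 3 were not called. The call of 1371209_at was lost without any single array other than DR+/+ replicate 2 and JBlyp/lyp replicate 1 (adjusted p = 0.065 to 0.158).

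The light chain gene B2m was among the brightest of all genes, and its probe sets disagreed on which group was highest. On 1367595_s_at it read 11.68 and 10.67 in JBlyp/lyp, 11.40 and 11.44 in DR+/+, and 11.47 and 10.94 in JB, against 12.06 and 12.16 in F344lyp and 11.75 and 11.54 in F344. On 1371440_at it read 9.26 and 9.98 in JBlyp/lyp, 10.83 and 10.56 in DR+/+, and 9.51 and 9.80 in JB, against 10.10 and 10.62 in F344lyp and 10.36 and 10.43 in F344. DR+/+ lay below both control groups on the first and led on the second, and the replicates of JBlyp/lyp lay in opposite order on them. The first fell by 0.61 (SE 0.19, adjusted p = 0.0307), and the second was not called at -0.39 (SE 0.16, adjusted p = 0.0919). The first call was lost without DR+/+ replicate 1 or 2, JB replicate 2, or any 1 control array (adjusted p = 0.0626 to 0.117), and the second probe set was called without JBlyp/lyp replicate 2 (-0.51, adjusted p = 0.0141) or without the DR+/+ arrays (-0.74, adjusted p = 0.0211).

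Several measures of the arrays moved with this comparison. The list of 15 macrophage and dendritic cell genes, cells rich in class I and immunoproteasome, summed to between 10.70 and 11.19 on the BB arrays and between 11.82 and 12.15 on the control arrays, and 15 of its 20 probe sets were called lower and 0 higher. The acinar list of 11 measured genes summed to between 14.36 and 15.83 on the BB arrays and between 16.57 and 17.04 on the control arrays. Of 11 endothelial probe sets 8 were called higher and 1 lower (median 0.65), and of 7 beta cell probe sets 5 were called lower and 0 higher (median -0.79), with the DR+/+ arrays apart from the rest as given above. The part of these cell type lists in the results was not tested. The difference between the 3′ and 5′ Gapdh control probe sets, a measure of RNA quality, averaged 3.22 in BB and 2.29 in control arrays. With it as a covariate 0 of the 15 probe sets were called, and the differences then were -1.53 for Psmb10, -0.65 for Psmb9 and 1.58 for RT1-T24-4 (adjusted p = 0.592 to 0.88).

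**Figure D2:**
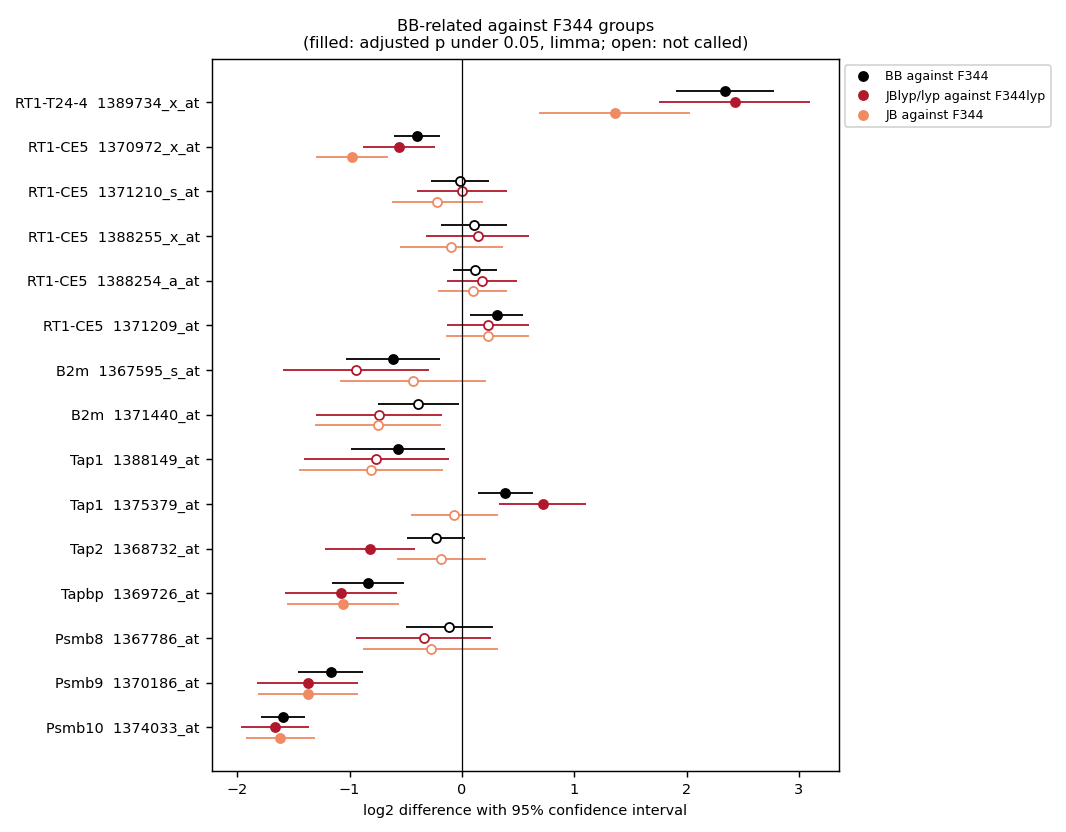
Log2 difference (x axis) with its 95% confidence interval for each of the 15 probe sets (rows) in BB against F344 (black), JBlyp/lyp against F344lyp (red) and JB against F344 (orange); filled points were called. Psmb10, Psmb9 and Tapbp lie left of 0 and RT1-T24-4 right of 0 in all 3 comparisons, while the 4 dim RT1-CE5 probe sets lie near 0.

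The backgrounds were then compared within each lyp genotype, JBlyp/lyp against F344lyp and JB against F344, which share no array. With lyp, 7 of the 15 were called, 5 lower and 2 higher (14.1% of all probe sets were called, 7.55% lower and 6.57% higher). Without lyp, 5 were called, 4 lower and 1 higher (11.6% of all, 5.35% lower and 6.23% higher). Psmb10, Psmb9, Tapbp and RT1-CE5 (1370972_x_at) were called lower and RT1-T24-4 higher in both. The members' median difference was -0.56 with lyp and -0.28 without it, against 0.03 and 0.01 over all probe sets.

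Psmb10 fell by 1.66 with lyp (SE 0.14, adjusted p = 7.61e-05, n = 2 against 2 arrays, limma) and fell by 1.62 without it (SE 0.14, adjusted p = 0.000144). Psmb9 stood at -1.38 with lyp (SE 0.20, adjusted p = 0.00229) and at -1.37 without it (SE 0.20, adjusted p = 0.00266). Both kept their calls without each single array. RT1-T24-4 rose by 2.43 with lyp (SE 0.30, 5.38-fold, adjusted p = 0.000889) and by 1.36 without it (SE 0.30, 2.57-fold, adjusted p = 0.0185), and the call without lyp was lost without either JB or either F344 array (adjusted p = 0.0553 to 0.14).

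Tapbp fell by 1.08 with lyp (SE 0.22, adjusted p = 0.0122) and by 1.06 without it (SE 0.22, adjusted p = 0.0151). Its call was lost with lyp without JBlyp/lyp replicate 2 (0.0563) or F344lyp replicate 2 (0.114), and without lyp it was lost without JB replicate 2 (0.0873), F344 replicate 1 (0.139) or F344 replicate 2 (0.0689). RT1-CE5 (1370972_x_at) fell by 0.56 with lyp (SE 0.14, adjusted p = 0.0286) and by 0.98 without it (SE 0.14, adjusted p = 0.00258). The first of these was lost without any 1 of the JBlyp/lyp, F344lyp and F344 arrays (adjusted p = 0.0595 to 0.138), and the second was kept without each single array.

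With lyp, Tap2 also fell, by 0.82 (SE 0.18, adjusted p = 0.0155), and Tap1 (1375379_at) rose by 0.72 (SE 0.17, adjusted p = 0.0228). Both calls were lost without JBlyp/lyp replicate 2 (0.08 and 0.0872), F344lyp replicate 1 (0.069 and 0.0761) or F344lyp replicate 2 (0.0982 and 0.138). Without lyp, Tap2 stood at -0.18 and Tap1 (1375379_at) at -0.07, neither called. The brighter Tap1 probe set 1388149_at stood at -0.76 with lyp and at -0.81 without it (adjusted p = 0.114 and 0.107). Without replicate 1 of JBlyp/lyp or of JB it was called, at -1.14 (0.0214) and -1.24 (0.0263). Without JB replicate 2, 3 probe sets were called for JB against F344, those of Psmb10, Psmb9 and RT1-CE5 (1370972_x_at), all lower.

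B2m was not called in either comparison. On 1367595_s_at it stood at -0.94 with lyp (adjusted p = 0.0597) and at -0.44 without it (adjusted p = 0.402), and on 1371440_at at -0.74 and -0.75 (adjusted p = 0.0803 and 0.0886). With lyp, 1367595_s_at was called without JBlyp/lyp replicate 1 (-1.45, adjusted p = 0.00236) or either JB array (0.0491), and 1371440_at without JBlyp/lyp replicate 2 (-1.10, adjusted p = 0.018). Without lyp, 1371440_at was called without either JBlyp/lyp array (0.0272), which alters only the estimate of the spread. Psmb8 stood at -0.34 with lyp (95% interval -0.94 to 0.26) and at -0.28 without it (95% interval -0.88 to 0.32), so a fall as large as that of Psmb9 or Psmb10 is outside both intervals.

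The effect of lyp was read within each background. For JBlyp/lyp against JB 0 of the 15 were called in limma (2 at an unadjusted p under 0.05), where 0.00322% of all probe sets, a single one, were called. For F344lyp against F344 0 of the 15 were called as well (3 at an unadjusted p under 0.05), where 1.51% of all were called, 1.12% higher and 0.383% lower. RT1-T24-4 stood closest to the threshold, at 5.87 and 6.65 in F344lyp against 7.63 and 7.77 in F344, a difference of -1.44 (SE 0.30, 2.71-fold lower, adjusted p = 0.0512). It was called without either JBlyp/lyp array (0.00951 each), since they share the estimate of the spread, and when only the F344lyp and F344 arrays were fitted (0.00118). In JBlyp/lyp against JB it read 8.24 and 9.14 against 9.13 and 8.99, an overlap, with a difference of -0.37 (95% interval -1.04 to 0.30).

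RT1-CE5 (1370972_x_at) was 0.47 lower in F344lyp (95% interval -0.79 to -0.15, adjusted p = 0.146) and stood at -0.06 in JBlyp/lyp (95% interval -0.37 to 0.26). Tap2 stood at -0.59 in JBlyp/lyp against JB (adjusted p = 0.611) and at 0.05 in F344lyp against F344 (adjusted p = 0.93). Tap1 (1375379_at) stood at 0.52 and -0.27 in these backgrounds (adjusted p = 0.647 and 0.497). Psmb9 stood at 0.39 in both and Psmb10 at 0.29 and 0.33, none called. For both genes in both backgrounds the lyp arrays lay above the arrays without lyp, but groups of 2 arrays did not overlap for 29.8% of all probe sets in JBlyp/lyp against JB and for 56.2% in F344lyp against F344. The 2 lyp effects were set against each other with an interaction term, and 0 of the 15 were called (3 at an unadjusted p under 0.05, 0.283% of all called, 0.029% higher and 0.254% lower). The largest such difference was that of RT1-T24-4, at 1.07 (95% interval 0.11 to 2.02, adjusted p = 0.588), and for Psmb9 it was 0.00 (95% interval -0.64 to 0.63). Without JB replicate 2, 0 of the 15 were called for lyp in JB and for the interaction.

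**Figure D3:**
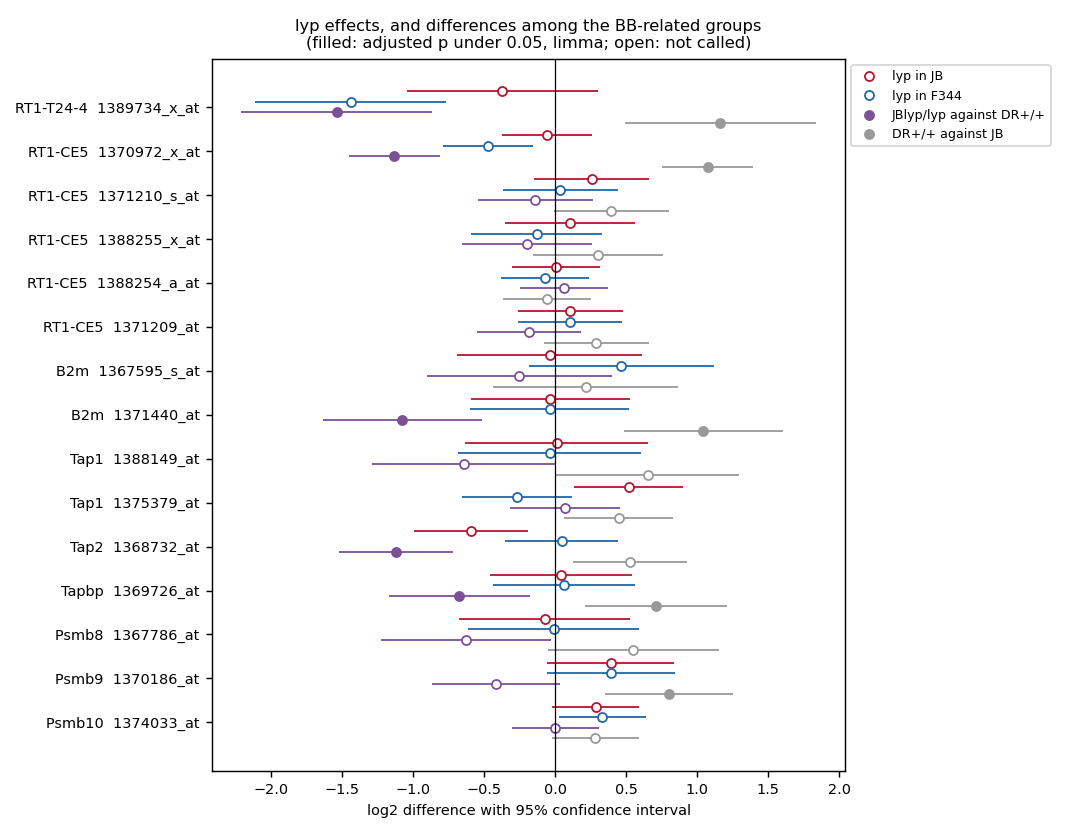
Log2 difference (x axis) with its 95% confidence interval for each of the 15 probe sets (rows) in JBlyp/lyp against JB (red), F344lyp against F344 (blue), JBlyp/lyp against DR+/+ (purple) and DR+/+ against JB (grey); filled points were called. No lyp effect within a background is filled, and the filled purple and grey points of RT1-T24-4, RT1-CE5 1370972_x_at, B2m 1371440_at and Tapbp lie on opposite sides of 0.

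DR+/+ was also compared with each of the other BB-related groups. For JBlyp/lyp against DR+/+, 5 of the 15 were called, all lower (32.1% of all probe sets were called, 14.5% lower). For DR+/+ against JB, 5 were called, all higher (28.3% of all, 13% higher). These 2 comparisons share the DR+/+ arrays. RT1-T24-4, RT1-CE5 (1370972_x_at), B2m (1371440_at) and Tapbp were called in both, Tap2 in the first alone and Psmb9 in the second alone.

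RT1-CE5 (1370972_x_at) fell by 1.13 in JBlyp/lyp against DR+/+ (SE 0.14, 2.19-fold lower, adjusted p = 0.000232, limma) and was 1.07 higher in DR+/+ than in JB (SE 0.14, 2.11-fold, adjusted p = 0.000391). Both calls were kept without each single array. B2m (1371440_at) stood at -1.07 and 1.04 in the same comparisons (adjusted p = 0.00845 and 0.0112). Its first call was lost without DR+/+ replicate 1 (0.0659), and its second without DR+/+ replicate 1 (0.0832) or JB replicate 1 (0.0684). The other B2m probe set, 1367595_s_at, stood at -0.25 and 0.22, neither called.

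RT1-T24-4 fell by 1.54 in JBlyp/lyp against DR+/+ (SE 0.30, adjusted p = 0.0033), a call kept without each single array, and was 1.16 higher in DR+/+ than in JB (SE 0.30, adjusted p = 0.0162), a call lost without DR+/+ replicate 1 (0.0904), DR+/+ replicate 2 (0.0606) or JB replicate 2 (0.067). Tap2 fell by 1.12 in JBlyp/lyp against DR+/+ (SE 0.18, 2.17-fold lower, adjusted p = 0.001), a call kept without each single array, and was 0.53 higher in DR+/+ than in JB, not called (adjusted p = 0.0523). Psmb9 was 0.80 higher in DR+/+ than in JB (SE 0.20, adjusted p = 0.0139), a call lost without DR+/+ replicate 1 (0.0963) or JB replicate 1 (0.0607).

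Tapbp stood at -0.67 in JBlyp/lyp against DR+/+ (adjusted p = 0.0436) and at 0.71 in DR+/+ against JB (adjusted p = 0.0379), but without JBlyp/lyp replicate 2 the first was -0.39 (0.242) and without JB replicate 2 the second was 0.49 (0.207). Leaving out any 1 DR+/+, F344 or F344lyp array also lost the first call (0.0544 to 0.148), and leaving out any 1 DR+/+ or F344 array also lost the second (0.0594 to 0.14). Without JBlyp/lyp replicate 1, 8 of the 15 were called lower against DR+/+. Those gained were B2m (1367595_s_at, -0.76), Tap1 (1388149_at, -1.02) and Psmb8 (-1.01). Without JB replicate 1, Tap1 (1388149_at, 1.08), Psmb8 (0.90) and Tap2 (0.68) were called higher in DR+/+ than in JB. Without DR+/+ replicate 1, 2 were called, RT1-CE5 (1370972_x_at) and Tap1 (1375379_at, 0.69). Psmb10 stood at 0.00 in JBlyp/lyp against DR+/+ (95% interval -0.30 to 0.31). Psmb9 (-0.41) and B2m (1367595_s_at, 95% interval -0.90 to 0.40) were not called there either. Several cell type lists differed between DR+/+ and JB as well. Of 11 endothelial probe sets 10 were called higher in DR+/+ (median 0.80), and of 5 ductal ones 3 were (median 1.35). Of 11 acinar probe sets 9 were called lower, and of 7 beta cell ones 6 were. Of 4 other endocrine probe sets 3 were called lower and 1 higher. Of 20 macrophage and dendritic ones 4 were higher and 2 lower (median 0.04), a share near that of all probe sets. Of all probe sets 28.3% were called in this comparison, 13% higher and 15.4% lower. The part of these lists in the results was not tested.

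The replicates of JBlyp/lyp and of JB differed in the same direction for some of the probe sets and in opposite directions for others. Replicate 2 was below replicate 1 in both groups for Tap1 (1388149_at, by 0.76 in JBlyp/lyp and 0.86 in JB), Psmb8 (by 0.77 and 0.69), B2m (1367595_s_at, by 1.01 and 0.54), Tapbp (by 0.56 and 0.45) and Tap2 (by 0.42 and 0.31), and was above it for B2m (1371440_at, by 0.72 and 0.29). Other probe sets did not share a direction. RT1-T24-4 was 0.90 higher in replicate 2 of JBlyp/lyp and 0.14 lower in that of JB, and Psmb9 was 0.42 lower and 0.06 higher. Of the 15, 6 differed by over 0.5 between the JBlyp/lyp arrays and 3 between the JB arrays, where 19.2% and 15.5% of all probe sets did. In the other groups 1 of the 15 differed by that much in DR+/+ (7.85% of all probe sets), 2 in F344lyp (6.19%) and 0 in F344 (1.02%).

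**Figure D4:**
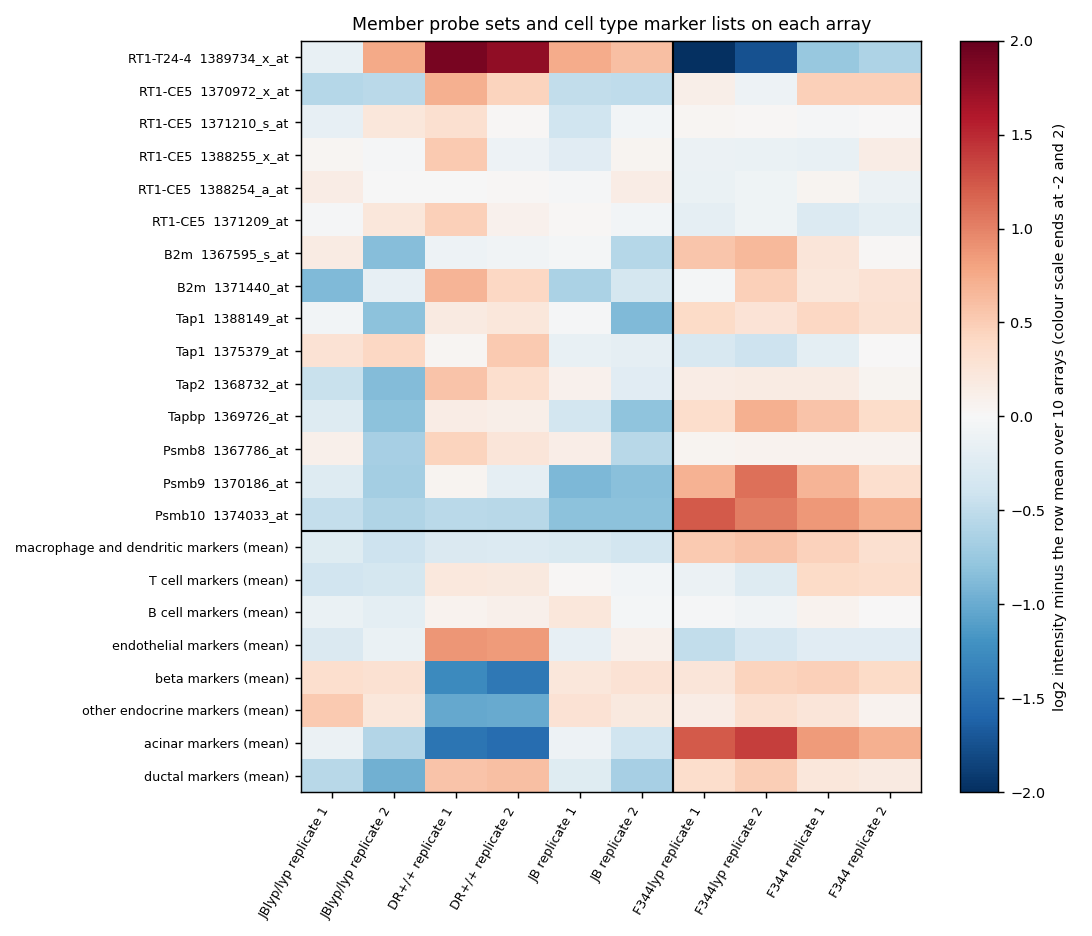
Log2 intensity minus the row's mean over the 10 arrays (colour, from -2 in blue to 2 in red) for the 15 probe sets (above the horizontal line) and the mean of each of 8 cell type marker lists (below it), with one column per array and the BB-related groups left of the vertical line. The Psmb10 row changes colour at the vertical line as the macrophage row does. The acinar row does so apart from JBlyp/lyp replicate 1 and JB replicate 1, which lie near the row mean. The Psmb9 row does so apart from DR+/+ replicate 1, which lies near the row mean. The RT1-T24-4 row does so in the opposite sense, apart from JBlyp/lyp replicate 1, which lies near the row mean. The DR+/+ columns differ from JBlyp/lyp and JB in the beta, acinar and endothelial rows.

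Among the members, patterns were compared by the root mean square difference of array values after each probe set was centred on its own mean over the 10 arrays. Leaving aside the dim RT1-CE5 probe sets, the most alike were Tap1 (1388149_at) and Tapbp at 0.20, Tap2 and Psmb8 at 0.23, and Tap1 (1388149_at) and Psmb8 at 0.24. The least alike were RT1-T24-4 and Psmb10 at 2.09. Tap1 (1388149_at) and Psmb9, whose starts face away from each other, differed by 0.43. Outside the members, 10405 probe sets with 1 symbol and an SD of at least 0.3 were ranked by the same measure against the 4 members with the widest range of group means. Nearest to Psmb10 were Pop5 (0.16), Rab15 (0.19) and Nmi (0.19), and nearest to Psmb9 were Pilra (0.17), Pfkp (0.18) and Prr15l (0.18). Nearest to RT1-CE5 (1370972_x_at) were Nkd1 (0.11), Inmt (0.11) and Kcns3 (0.15), and nearest to RT1-T24-4 were Hecw2 (0.46), Lox (0.46) and Washc4 (0.48).

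The other genes of the pathway were read from lists for BB against F344, where 33.2% of all probe sets were called, 17% lower and 16.2% higher. Of 13 probe sets of 9 other RT1 class I genes, 8 were called lower and 1 higher, with a median difference of -0.36. RT1-S3 was lower on 1388213_a_at (-1.55) and 1371123_x_at (-1.21), RT1-CE16 was lower (-1.06) and RT1-CE10 was lower (-0.87). Brighter probe sets of RT1-S3 differed less, 1388212_a_at at -0.27 (adjusted p = 0.0428) and 1388164_at at -0.04, not called (adjusted p = 0.839). Of these, 1388212_a_at was called for JBlyp/lyp against F344lyp (-0.83) and JB against F344 (-0.64), and 1388164_at in neither. The single rise was that of RT1-A3 (1371213_at, 0.45, named after its value was seen). It was not called for JBlyp/lyp against F344lyp (0.08) or JB against F344 (0.23). RT1-CE10 and this RT1-A3 probe set lay in the lowest 25 percent of mean intensity. RT1-T24-3 was lower (-0.54, also named afterwards). The class I like genes outside RT1 had 2 of 6 probe sets called lower, Fcgrt (-1.14), the receptor that recycles antibodies and pairs with B2m, and Hfe (-0.70), the iron regulator that also pairs with B2m. A further 2 were higher, Procr (0.84), the protein C receptor, and Cd1d1 (0.49), which presents lipids. Of these 4 genes, only Fcgrt was called within each lyp genotype, at -1.53 for JBlyp/lyp against F344lyp and -1.28 for JB against F344. Procr stood at -0.17 and 0.29, Cd1d1 at 0.05 and 0.30 and Hfe at -0.23 and -0.33 in the same comparisons, none called. DR+/+ was the group farthest from the controls for these 3, with means of 8.47, 8.71 and 5.36.

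Of 23 probe sets of 18 constitutive and regulatory proteasome genes, 9 were called lower and 2 higher, with a median of -0.29, against 17% and 16.2% of all probe sets. Of the counterparts that the immunoproteasome subunits replace, Psmb5 was lower on 1371348_at, its brightest probe set (-0.65, adjusted p = 0.000766), and not called on 1385531_at (-0.15) and 1385532_x_at (-0.07). Psmb7 was lower (-0.43, adjusted p = 0.00966), with its lowest mean in DR+/+ (8.03), but stood at 0.21 for JBlyp/lyp against F344lyp and at -0.46 for JB against F344, neither called. Psmb6 was not analysed here. The core subunit genes Psmb3 (-1.02), Psma1 (-0.98), Psma5 (-0.91) and Psmb1 (-0.73) were lower too. Of these, only Psma5 was called within each lyp genotype, at -0.78 for JBlyp/lyp against F344lyp and -0.95 for JB against F344. Psmb3 and Psma1 were called in the first of these comparisons (-1.08 and -0.82) but not in the second (-0.74 and -0.72). Psmb1, with its lowest mean in DR+/+ (8.24), stood at -0.40 and -0.32, neither called. Of 21 probe sets of 13 other peptide loading and trimming genes, 8 were lower and 4 higher, with a median of -0.05. The rises included Erap1 on 1368356_a_at (0.69) and Tpp2 (0.63), both named after their values were seen. These were called for JB against F344 (0.65 and 0.71) but not for JBlyp/lyp against F344lyp (0.14 and 0.41). Erap1 has further probe sets, which can differ. The named falls were Sec61a1 (-1.16 on 1382615_at and -0.79 on 1371368_at), a channel of the endoplasmic reticulum, and the peptidase genes Thop1 (-0.78) and Nrdc (-0.74). Sec61a1 on 1371368_at had its lowest mean in DR+/+ (9.50). It stood at -0.18 for JBlyp/lyp against F344lyp and at -0.40 for JB against F344, neither called. Thop1 was also lowest in DR+/+ (4.14), and stood at -0.49 and -0.57 in the same comparisons, neither called.

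Of 34 probe sets of 20 class I transcription and interferon signalling genes, 9 were lower and 1 higher, with a median of -0.11. Of all probe sets 17% were called lower and 16.2% higher, so the share called in either direction was near that of all, with more of the calls lower. The transactivator of class I genes, Nlrc5, was not called (0.10, adjusted p = 0.545), and neither was the interferon-induced factor Irf1 (0.10, adjusted p = 0.732). Jak1 on 1384060_at (-0.88), Irf8 (-0.64) and Irf9 on 1374627_at (-0.61) were lower, and Rfxank, a factor of MHC promoters, was higher (0.79). Brighter probe sets of 2 of these genes were not called, 1383478_at of Jak1 at 0.24 (adjusted p = 0.0691) and 1383448_at of Irf9 at -0.14 (adjusted p = 0.575). Of 22 probe sets of 17 interferon gamma induced genes, 11 were lower and 3 higher, with a median of -0.31. Among them Mx1 (-1.46) and Oas1a (-1.07), antiviral effectors that type I interferon induces as well, were lower, and Irgm (1.47), an immunity-related GTPase, and the chemokine gene Cxcl10 (1.13) were higher. Cxcl10 was high in JBlyp/lyp and JB, at group means of 7.69 and 8.13, and low in DR+/+, at 4.98, against 6.13 in F344lyp and 5.48 in F344.

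**Figure D5:**
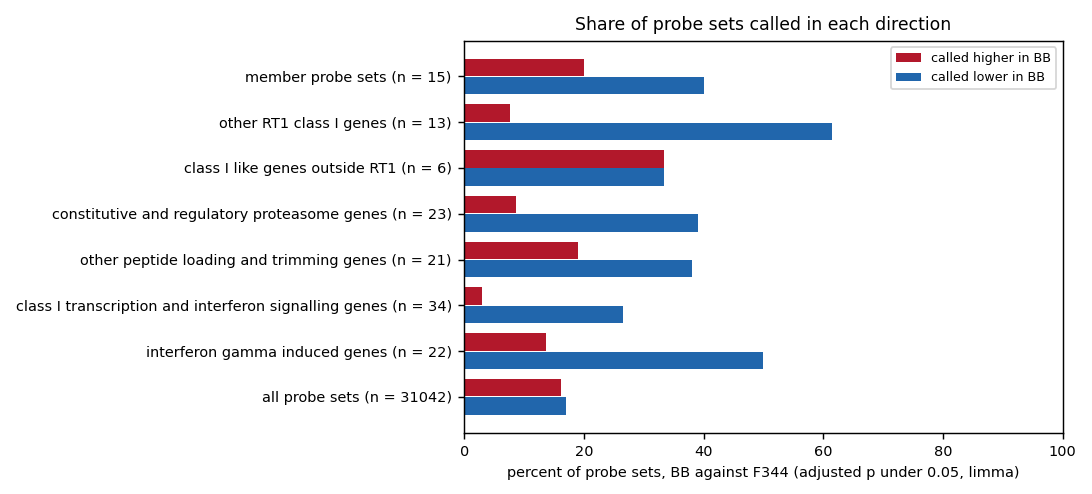
Percent of probe sets called higher (red) and lower (blue) in BB against F344 (x axis) for the 15 members, the 6 lists of other pathway genes and all 31042 probe sets, with the number of probe sets beside each name. Of the members 9 of 15 were called, against 33.2% of all probe sets, and in 5 of the 6 lists the lower share was above the higher one.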

How the data were processed

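Islet RNA was hybridised to 1-colour Affymetrix arrays, 2 per group in 5 groups. The deposited values are log2 intensities per probe set, and the submitters' processing notes list GCOS and RMA as the authors' tools, with no version. The array medians were alike, so the values were used without further scaling. The 57 Affymetrix control probe sets among 31099 were left out. Probe sets were named from the platform annotation (20826 with 1 symbol, 436 with several, 9780 with none). The members and gene lists were chosen with earlier results of these data known. limma 3.58.1 (R 4.3.3) was fitted with 1 mean per group over all 10 arrays (5 residual degrees of freedom), and 8 comparisons were each adjusted over 31042 probe sets by Benjamini-Hochberg. The fit was tested on simulated data. The number of arrays limits the precision. All member probe sets are named. From each gene list, up to 4 called probe sets with the largest difference for BB against F344 are named, with Psmb5, Psmb7, Nlrc5 and Irf1 whatever their values. Promoter windows came from RefSeq tables of GRCr8. Alternatives were another normalization, filter, variance model, block, covariate and set of arrays.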

Additional observations from a re-analysis of the deposited data

How the results depend on the processing

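Of 2127 recomputed differences of the 15 probe sets, 1841 kept their sign and side of the threshold, 117 lost a call and 49 gained one. Another 119 changed sign but were called in neither fit, and 1 called value changed sign, that of Tap1 (1375379_at) for BB against F344 at -0.074 (adjusted p = 0.988) with the Gapdh 3′ to 5′ difference as a covariate. With that covariate the number called was 0 for BB against F344, 0 for JB against F344, 0 for JBlyp/lyp against F344lyp, 2 for DR+/+ against JB and 2 for JBlyp/lyp against DR+/+. Over all probe sets it left 8 called for BB against F344, against 10300 without it. The covariate follows the BB against F344 division closely, so the division and RNA quality cannot be told apart here. With the strain as a random block 3 were called for BB against F344. With only the arrays of the compared groups 3 were called for JBlyp/lyp against F344lyp and 2 for lyp in F344. Quantile normalization, the intensity trend with a robust prior, the replicate block, and the fit without the replicate 2 arrays of JB and JBlyp/lyp (chosen after seeing the data) each called 1 for lyp in F344. Leaving out 1 array at a time gave 5 to 9 for BB against F344, 3 to 7 for JB against F344, 3 to 9 for JBlyp/lyp against F344lyp, 0 to 1 for lyp in F344, 2 to 6 for DR+/+ against JB and 3 to 8 for JBlyp/lyp against DR+/+. The number called over all probe sets also changed between the alternatives, so such changes are not particular to the members. Other than the alternatives' own construction (fewer arrays, another spread), the cause was not tested. Groups share replicate numbers 1 and 2, and since no pairing is stated the numbers were not taken as pairs. The deviations of same-numbered arrays correlated at -0.101 to 0.652, with 5 of 10 pairs of groups over 0.1. The highest value, 0.652, was that of JB with JBlyp/lyp, and the next was 0.237 (JBlyp/lyp with F344lyp). Whether the same-numbered JB and JBlyp/lyp arrays belong together was not tested, and their comparison ignores it. As a block the replicate numbers gave 8 calls for BB against F344, 7 for JB against F344 and 10 for JBlyp/lyp against F344lyp. They gave 6 for DR+/+ against JB, 6 for JBlyp/lyp against DR+/+ and 0 for lyp in JB. Gained with the block were B2m (1371440_at) and Tap1 (1388149_at) in both comparisons within a lyp genotype, B2m (1367595_s_at) with lyp, RT1-T24-4 for lyp in F344, Tap2 for DR+/+ against JB and Psmb8 for JBlyp/lyp against DR+/+, and RT1-CE5 (1371209_at) was lost for BB against F344. No detection calls stand behind the 5 dim probe sets.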

Other observations

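Of the 21 probe sets of 13 other peptide loading and trimming genes, 12 were called lower and 2 higher in DR+/+ against JB, where 15.4% of all probe sets were called lower and 13% higher, and 12 were called higher and 2 lower in JBlyp/lyp against DR+/+, where 17.6% of all were called higher and 14.5% lower. Of the 15 member probe sets, 5 were called higher and 0 lower in DR+/+ against JB and 10 were not called, and no test compared them with this list. Both comparisons use the DR+/+ arrays. The genes named here were chosen after their values were seen. Probe sets of endoplasmic reticulum chaperone genes were lower in DR+/+ than in JB, with Canx (calnexin, 1371687_at) at -1.27, Hspa5 (the chaperone BiP) at -1.26, Pdia3 (1398788_at, the tapasin partner ERp57) at -1.01 and Calr (calreticulin) at -0.48. Canx and Pdia3 have further probe sets, which can differ. On 1371686_at, at the 99.5th percentile of mean intensity, the gap of Canx was smaller, with group means of 11.35 in DR+/+ and 11.85 in JB. Erap1, the peptidase that trims class I peptides in the endoplasmic reticulum, was higher on 2 of its 3 probe sets, 1368356_a_at at 0.74 (adjusted p = 0.00237, limma) and 1387149_at at 0.62 (adjusted p = 0.0133), and not called on 1399161_a_at (-0.03). The other RT1 class I genes had 7 of 13 probe sets called higher and 0 lower in DR+/+ against JB. The beta cell list, rich in secretory cells, had 6 of its 7 probe sets called lower in the same comparison, and its part in these values was not tested.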
